A study of Homo sapiens with 8 samples.

Results

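A group of 10 host-defence genes of the epidermis were followed in HaCaT keratinocytes. These were 5 beta-defensin genes (DEFB1, DEFB4A, DEFB4B, DEFB103A and DEFB103B), the cathelicidin precursor CAMP, the antimicrobial ribonuclease RNASE7, the lipocalin LCN2, and the protease inhibitors PI3 and SLPI. The genes were chosen by symbol, through their Entrez identifiers, and make up 10 of the 17131 genes in the deposited table. HaCaT, a human keratinocyte line that grows without limit in culture, was of wild type genotype. All 8 libraries came from cells given M5, a cocktail of 5 cytokines (oncostatin M, TNF-α, IL-1α, IL-17A and IL-22, at 10 ng/mL for 24 h) that brings keratinocytes into a psoriasis-like state. The comparison asked what the TOPK inhibitor OTS514 (10 nM, with 12 h of preincubation according to the methods) changed under this stimulation. No culture without M5 was analysed here. HaCaT is a cell line, and psoriatic skin also holds infiltrating leukocytes that these cultures lack.

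The 4 libraries of 1 group are titled M5_O5 and the 4 of the other group are titled M5. The title M5_O5 can be read as M5 with OTS514, but the treatment field of these libraries names no treatment, while that of the libraries titled M5 names the TOPK inhibitor. Directions are therefore given between titles. Where a gene was lower in M5_O5, it was lower with OTS514 if the titles hold, and higher with OTS514 if the treatment field holds. Nothing in the labels says whether the 4 libraries of a group came from separate cultures, so p-values measure the spread between these libraries, which may be technical. Replicate 1 of M5 stood apart from the others of its group, and that of M5_O5 did so less clearly. Between M5 replicate 1 and the other M5 libraries the chi-square of counts per gene was 10.4 to 16.5, against 2.02 to 4.06 among those others. For M5_O5 replicate 1 it was 7.18 to 11.2, against 3.03 to 7.18, so that these ranges met. Results are therefore also given without replicate 1 of both groups, a setting added after the values had been seen.

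Antimicrobial peptides and protease inhibitors form the chemical barrier of skin. Beta-defensins, cathelicidin and RNase 7 are small cationic proteins that disrupt microbial membranes, LCN2 withholds iron by binding bacterial siderophores, and PI3 (elafin) and SLPI block neutrophil serine proteases such as elastase. IL-17A, IL-22, TNF-α and IL-1 induce many of these genes in keratinocytes, and DEFB4A, LCN2 and PI3 are known for high levels in psoriatic epidermis. CAMP, LCN2 and SLPI are also stored in neutrophils.

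The cysteine-rich coding stretches of PI3 and SLPI are shown because these inhibitors gave 2 of the 3 differences between the groups. They were read from GENCODE 29 on GRCh38, from the first cysteine codon to the stop codon, and capitals mark the in-frame cysteine codons. In whey acidic protein (WAP) domains, the inhibitory fold of both proteins, paired cysteines hold the domain together.

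PI3: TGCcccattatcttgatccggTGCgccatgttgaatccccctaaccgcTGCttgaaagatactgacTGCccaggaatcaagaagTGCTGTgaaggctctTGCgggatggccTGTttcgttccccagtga

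SLPI: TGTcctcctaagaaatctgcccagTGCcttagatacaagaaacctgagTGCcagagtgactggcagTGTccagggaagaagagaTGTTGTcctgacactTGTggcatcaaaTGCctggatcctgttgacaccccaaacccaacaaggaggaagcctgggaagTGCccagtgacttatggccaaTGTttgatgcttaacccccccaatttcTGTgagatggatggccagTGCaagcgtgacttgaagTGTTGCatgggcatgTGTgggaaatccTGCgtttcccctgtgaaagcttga

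PI3 held 8 cysteine codons, all in the last 129 of its 354 coding bases, and SLPI held 16, in the last 297 of its 399. The doubled number goes with the pair of WAP domains of SLPI, against the single one of PI3. Aligned with each other over their full length, the 2 coding sequences were identical at 216 of 338 aligned bases, so reads of these genes are readily told apart. The defensin copies are different in this respect. The transcripts of DEFB4A and DEFB4B were identical at 331 of 332 aligned bases, and those of DEFB103A and DEFB103B at all 518. Counts of each pair were therefore also added, since mapping cannot place most of their reads on 1 copy. The table lists DEFB4A at 2 placements with equal counts and DEFB4B at 2 placements, of which 1 received nearly all reads.

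The genes covered a wide range of levels (TPM, the share of a library's transcripts after correction for their length). PI3 was the most abundant, with 15971 to 20560 TPM over the 8 libraries, and ranked 6 among all genes by its mean. LCN2 followed at 5525 to 7376 TPM and rank 14, and SLPI at 2039 to 2760 TPM and rank 52. DEFB4A and DEFB4B together, which encode beta-defensin 2, had 936 to 1231 TPM. RNASE7 had 67.8 to 94.9 TPM, and DEFB103A and DEFB103B together, which encode beta-defensin 3, had 10.4 to 40.7 TPM. The ranges of these 6 did not overlap, so their order was the same in every library. DEFB1, which encodes the beta-defensin that resting epithelia make, lay between 0 and 7.67 TPM, and CAMP between 0 and 0.71 TPM, and these last 2 overlapped. PI3, LCN2 and SLPI supplied 95.2% to 96.2% of the summed TPM of the 10 genes in each library. That sum was 2.52% to 2.71% of all TPM in the M5_O5 libraries and 2.82% to 3.19% in the M5 libraries, so the groups did not overlap.

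**Figure D1:**
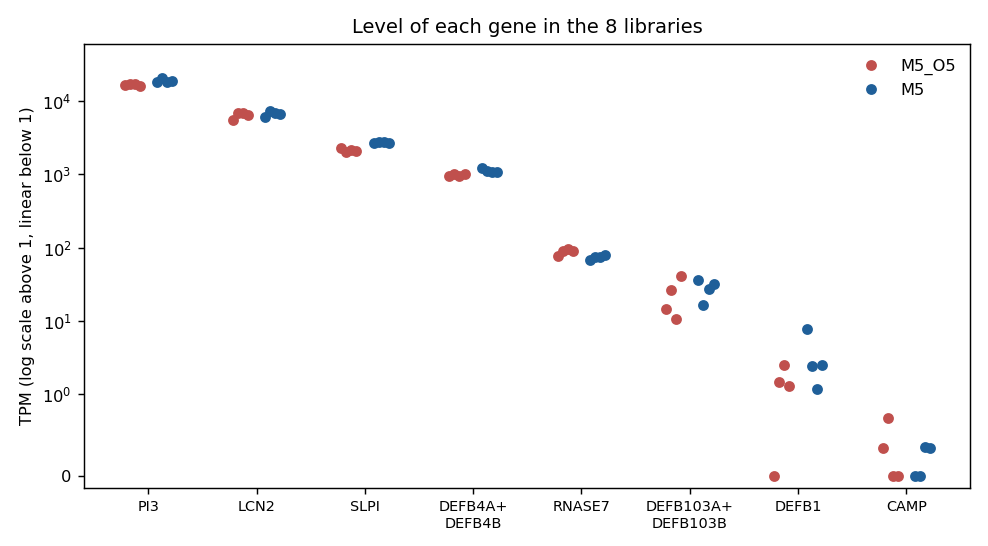
TPM of each gene, with the defensin copies summed, in the 4 M5_O5 (red) and 4 M5 (blue) libraries, on an axis that is logarithmic above 1 and linear below it. PI3 lies at or above 15971 TPM in every library, whereas CAMP stays below 1 TPM.

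The TPM of the short defensin transcripts depends on how transcript length was corrected. One read of DEFB4A or DEFB4B was worth 4.18 to 5.61 times as many TPM as a read of PI3, with the lowest value in M5_O5 replicate 1 and the highest in M5_O5 replicate 2. For RNASE7 the factor was only 0.208 to 0.237. On the scale of CPM (counts divided by library size, with a correction for composition but none for length), RNASE7 was above the DEFB4A and DEFB4B sum in every library. It is below that sum on the TPM scale. The comparison of groups below rests on counts, and the level order above on TPM.

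CAMP was near the limit of detection. It had 5 reads over all 8 libraries, with 1, 2, 0 and 0 in M5_O5 and 0, 0, 1 and 1 in M5. A library's limit for a count of 0, taken as 3 reads, was between 0.177 and 0.219 CPM, so every library lay below it. DEFB1 had 0, 1, 2 and 1 reads in M5_O5 and 5, 2, 1 and 2 in M5, so that both group means lay below the same limit and M5 replicate 1 alone exceeded it. DEFB103B received 1 read in all, in M5 replicate 2, and its identical copy DEFB103A took the others. No fold change is given for these 3 genes, and a difference between the groups was not detectable at this depth.

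The groups were compared for every gene with edgeR's quasi-likelihood test on counts summed per gene, with Benjamini-Hochberg adjustment over the 12434 genes that had enough counts. Total counts were between 13708055 and 16922693 per library, the smallest in M5 replicate 1. Of the 10 genes, 7 were tested, since CAMP, DEFB1 and DEFB103B had too few reads. PI3, SLPI and DEFB4A were lower in M5_O5 at an adjusted p-value under 0.05. This makes 3 of the 7 genes tested, where the same rule called 17.6% of all genes tested lower and 37.1% in either direction. Among genes that averaged 100 CPM or more, which include PI3 and SLPI, it called 42% lower. None of the 10 was higher by this test, which called 19.5% of all genes tested. At an unadjusted p-value under 0.05 this count was also 0, as it was with DESeq2, while limma on TPM called 1, RNASE7. No member was called at a fold change of 2 or more in edgeR, at adjusted or unadjusted p-values, in DESeq2 or in limma. By that stricter rule edgeR called 3.2% of all genes tested. Without replicate 1 of both groups, LCN2 and DEFB4B were called as well, so that 5 of the 10 were lower. This fit called 21.6% of all genes tested lower, and its share among genes of 100 CPM or more was not computed. With all 8 libraries, the groups did not overlap for PI3, SLPI and DEFB4A, as for 15.8% of all genes tested in the lower direction and 33.6% in either.

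The values of the libraries showed the size of these differences. SLPI, a secreted inhibitor of elastase and cathepsin G, had 397, 337, 376 and 347 CPM in M5_O5 replicates 1 to 4. In M5 it had 453, 535, 535 and 485 CPM. Every M5_O5 library was below every M5 library, and the group means were 365 ± 27.3 CPM and 502 ± 40.4 CPM (SD, n = 4). The log2 fold change was -0.46 (95% interval -0.61 to -0.31, edgeR adjusted p = 0.000187), so that M5 libraries held 1.38 times as much. An exact two-sided permutation test gave p = 0.0286, the smallest that 4 against 4 libraries allow. SLPI passed in all 19 alternative settings, with log2 fold changes from -0.55, without replicate 1 of both groups, to -0.31. The latter came from the fit in which the trend of fold change on expression level was removed from each library (edgeR, adjusted p = 0.00216).

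PI3, which encodes elafin, an elastase and proteinase 3 inhibitor that transglutaminases fix in the cornified envelope, was measured with the most reads. It had 2377, 2315, 2478 and 2259 CPM in the M5_O5 libraries. In the M5 libraries it had 2558, 3362, 2995 and 2906 CPM. The groups did not overlap, but M5 replicate 1 came close to M5_O5 replicate 3, and the M5 libraries were more spread out than the M5_O5 libraries. The means were 2357 ± 94.2 and 2955 ± 331 CPM (SD, n = 4), with a log2 fold change of -0.33 (95% interval -0.49 to -0.16, adjusted p = 0.00459, same test) and an exact permutation p = 0.0286. Without replicate 1 of both groups PI3 differed by -0.39 (edgeR, adjusted p = 2.77e-05). When the trend of fold change on expression level was removed from each library, the log2 fold change of PI3 was -0.12 and it no longer passed (edgeR, adjusted p = 0.108). It also missed the threshold with limma on log2(TPM + 1), at -0.19 (adjusted p = 0.0533).

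That trend concerned abundant genes as a whole. Of the 2103 genes that averaged 100 CPM or more, which include PI3, SLPI and LCN2, 76.5% had a log2 fold change below 0 and 42% were called lower in M5_O5. Only 8.42% of them were called higher. The keratinocyte markers moved with the groups as well. Among 10 markers, KRT5, KRT14, KRT6A, KRT16, KRT17, TP63, SFN, DSP, PKP1 and PERP, 7 were lower and 0 higher in M5_O5 by the adjusted p-value, with a median log2 fold change of -0.29, against 0.01 for all genes tested. Their summed level was high in all libraries, at 18460 to 22230 TPM in M5_O5 and 21010 to 22760 TPM in M5, and none of the 10 was at 0. With the trend removed, 2 of the 10 were lower. The same removal left PI3 at -0.12 and SLPI at -0.31 on the log2 scale. Beyond that fit, the part of these shifts in the values of PI3 and SLPI was not tested. In bulk cultures, fewer cells of a kind and less RNA per cell cannot be told apart.

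RNA for beta-defensin 2, a chemoattractant as well as an antimicrobial peptide, was also lower in M5_O5. The peptide was not measured. The genes DEFB4A and DEFB4B together had 562, 423, 496 and 518 reads in the M5_O5 libraries and 535, 594, 628 and 564 reads in the M5 libraries. Scaled to library size, this was 32.7, 24.3, 29.4 and 30.8 CPM in M5_O5 against 39.1, 38.8, 41.3 and 35.1 CPM in M5. All M5_O5 libraries were below all M5 libraries, with means of 29.3 ± 3.59 and 38.6 ± 2.56 CPM (SD, n = 4). The log2 fold change of the sum was -0.40 (95% interval -0.58 to -0.21, adjusted p = 0.00282 from edgeR, exact permutation p = 0.0286). M5_O5 replicate 2 was the lowest, and without it the log2 fold change was -0.32 (edgeR, adjusted p = 0.00781). Without replicate 1 of both groups it was -0.45 (edgeR, adjusted p = 0.000326). The sum passed under all 19 alternatives, from -0.45 to -0.22, where the smallest differences were those on the TPM scales.

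Taken as separate genes, the copies gave different calls. DEFB4A had 21.8, 17.6, 22.2 and 19.8 CPM in M5_O5 and 28.5, 27.9, 29.2 and 25.2 CPM in M5, without overlap. DEFB4B had 10.9, 6.66, 7.23 and 10.9 CPM in M5_O5 and 10.6, 10.9, 12.1 and 9.91 CPM in M5, with overlap. DEFB4A had a log2 fold change of -0.44 (95% interval -0.62 to -0.26, adjusted p = 0.00106, edgeR) and DEFB4B one of -0.29 (95% interval -0.61 to 0.04, adjusted p = 0.157, edgeR). DEFB4A held between 64.5% and 75.4% of the reads of the pair, with both extremes among the M5_O5 libraries. These counts add 2 placements of DEFB4A and almost only 1 of DEFB4B, so the share does not show which copy was more abundant. Without replicate 1 of both groups DEFB4B was called lower (-0.41, edgeR adjusted p = 0.0326), while single libraries left out gave -0.40 to -0.17, the smallest without M5_O5 replicate 2, and no call. Since a single base distinguished the aligned transcripts, this division is uncertain, and the sum is the safer value.

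**Figure D2:**
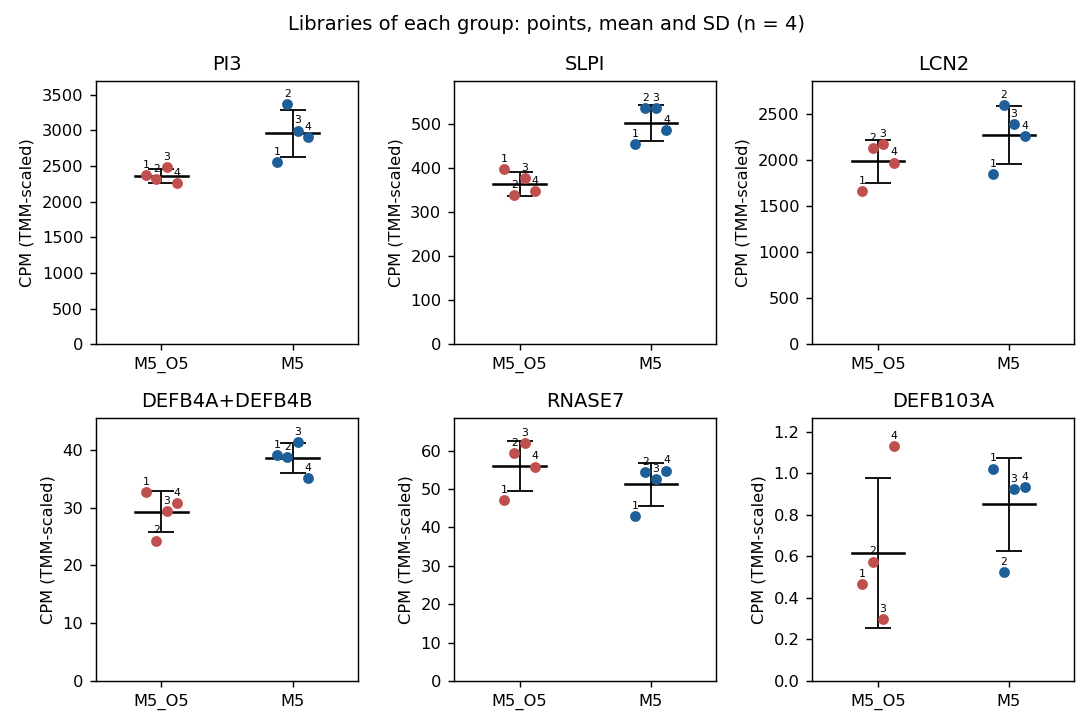
CPM of 5 genes and of the DEFB4A and DEFB4B sum in each library, numbered by replicate, with the mean (bar) and SD (whiskers) of 4 libraries per group and axes that start at 0. PI3, SLPI and the beta-defensin 2 sum do not overlap between groups, and LCN2, RNASE7 and DEFB103A do.

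LCN2, a siderophore-binding lipocalin that also forms a complex with MMP9, did not pass the test. It had 1668, 2132, 2178 and 1974 CPM in the M5_O5 libraries. In the M5 libraries it had 1849, 2602, 2392 and 2258 CPM. The groups overlapped, since replicate 1 was the lowest library of each group and M5 replicate 1 lay below 3 of the 4 M5_O5 libraries. The means were 1988 ± 231 and 2275 ± 318 CPM (SD, n = 4), with a log2 fold change of -0.19 (95% interval -0.41 to 0.02, adjusted p = 0.148, edgeR, exact permutation p = 0.2). Without M5 replicate 1, LCN2 was lower in M5_O5 by the test (-0.28, adjusted p = 0.01, edgeR), and so it was without replicate 1 of both groups (-0.21, edgeR adjusted p = 0.00645). With other single libraries left out it was -0.24 to -0.12 and did not pass, the smallest without M5_O5 replicate 1. Once the trend on level had been taken out, the log2 fold change was 0.01 (adjusted p = 0.953, edgeR).

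RNASE7, a ribonuclease that kills bacteria on the skin surface, had values in the other direction that also missed the threshold. It had 47, 59.3, 61.9 and 55.8 CPM in the M5_O5 libraries and 43, 54.4, 52.6 and 54.8 CPM in the M5 libraries. The groups overlapped, since 3 M5_O5 libraries were above all M5 libraries and M5_O5 replicate 1 was below 3 of these. The log2 fold change was 0.13 (95% interval -0.07 to 0.32, adjusted p = 0.291, edgeR, exact permutation p = 0.314). With single libraries left out it was between 0.05, without M5 replicate 1, and 0.20, without M5_O5 replicate 1, and it did not pass. Without both it was 0.13 (edgeR, adjusted p = 0.0804). Scaled by library size alone it was 0.25 (edgeR, adjusted p = 0.0338), and with limma on log2(TPM + 1) 0.25 (adjusted p = 0.0224). These scales moved the median log2 fold change of all genes from 0.01 to 0.13 and 0.12. The change of scale thus moved RNASE7 and the median of all genes alike, and RNASE7 stayed above that median. With the trend on level removed, RNASE7 was at 0.17 (edgeR, adjusted p = 0.178) and the median at -0.00451.

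DEFB103A had 5 to 19 reads in a library, which could equally come from DEFB103B. It had 0.465, 0.574, 0.296 and 1.13 CPM in M5_O5 and 1.02, 0.522, 0.921 and 0.934 CPM in M5. The highest library of all was M5_O5 replicate 4, so the groups overlapped. The log2 fold change was -0.46 with a 95% interval from -1.25 to 0.34 (adjusted p = 0.354, edgeR), which is too wide to tell a decrease of 2-fold from no change. Leaving out single libraries moved it from -0.23, without M5_O5 replicate 3 (adjusted p = 0.654, edgeR), to -0.91, without M5_O5 replicate 4 (adjusted p = 0.0693, edgeR).

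**Figure D3:**
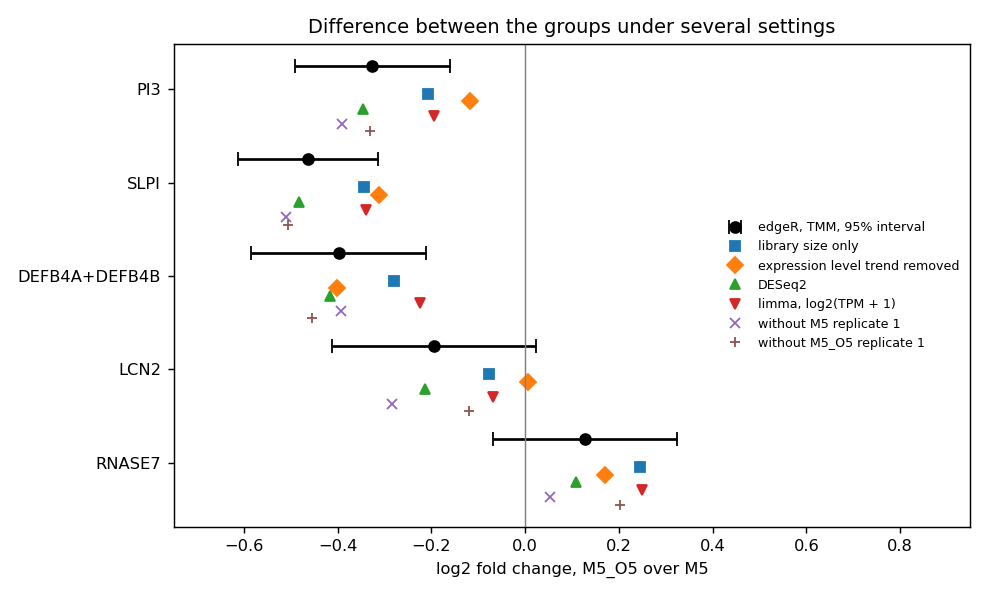
Log2 fold change of M5_O5 over M5 for 4 genes and the DEFB4A and DEFB4B sum. Black points with bars are the edgeR values with 95% intervals, and coloured symbols are other settings. PI3, SLPI and the beta-defensin 2 sum stay left of 0 under each setting drawn. With the trend on expression level removed, PI3 lies at -0.12 and LCN2 at 0.01.

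Ratios between 2 genes within a library do not depend on a single scaling factor per library. They do depend on a scaling that varies with expression level. With the trend on level removed, log2 fold changes were -0.12 for PI3, 0.01 for LCN2, -0.31 for SLPI, 0.17 for RNASE7 and -0.40 for the beta-defensin 2 sum (edgeR). The ratios below were not corrected for that trend. Ratios of counts were computed for the 10 pairs of PI3, LCN2, SLPI, RNASE7 and the beta-defensin 2 sum, a comparison added after the values had been seen. The groups did not overlap in 3 pairs, each of which set a gene against RNASE7. These pairs share the RNASE7 counts, so they are not independent. How often the groups do not overlap over all pairs of genes was not computed. SLPI reads outnumbered RNASE7 reads 8.45, 5.69, 6.08 and 6.22 to 1 in the M5_O5 libraries and 10.5, 9.84, 10.2 and 8.86 to 1 in the M5 libraries, a log2 difference of -0.59. PI3 over RNASE7 was 50.5, 39, 40 and 40.5 in M5_O5 and 59.5, 61.8, 57 and 53.1 in M5, a log2 difference of -0.45. Each M5_O5 library was below each M5 library in both pairs, and M5_O5 replicate 1 was the nearest to M5.

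LCN2 over RNASE7 showed a small spread in M5_O5. The ratio was 35.5, 36, 35.2 and 35.4 there and 43, 47.8, 45.5 and 41.2 in M5, a log2 difference of -0.32. LCN2 alone did not separate the groups, so the low values of LCN2 and RNASE7 in replicate 1 of each group cancelled in the ratio. All 3 pairs had an exact permutation p = 0.0286, the smallest possible, and an adjusted p = 0.0952 over the 10 pairs. None passed after adjustment, but with this smallest p, 3 separated pairs of 10 could not have passed it.

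The other 7 pairs overlapped, with adjusted p-values from 0.143 to 0.571 (exact permutation tests). The widest difference among these was that of RNASE7 over the beta-defensin 2 sum, which was 1.44, 2.44, 2.11 and 1.81 in M5_O5 and 1.1, 1.4, 1.27 and 1.56 in M5. Its log2 difference was 0.53 (exact permutation p = 0.0571, adjusted p = 0.143), and M5_O5 replicate 1 lay below M5 replicate 4. PI3 over SLPI was 5.98 to 6.86 in M5_O5 and 5.59 to 6.28 in M5, a log2 difference of 0.14 (exact permutation p = 0.0857, adjusted p = 0.171). SLPI over the beta-defensin 2 sum was 11.3 to 13.9 in M5_O5 and 11.6 to 13.8 in M5, a log2 difference of -0.06 (exact permutation p = 0.486, adjusted p = 0.54).

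**Figure D4:**
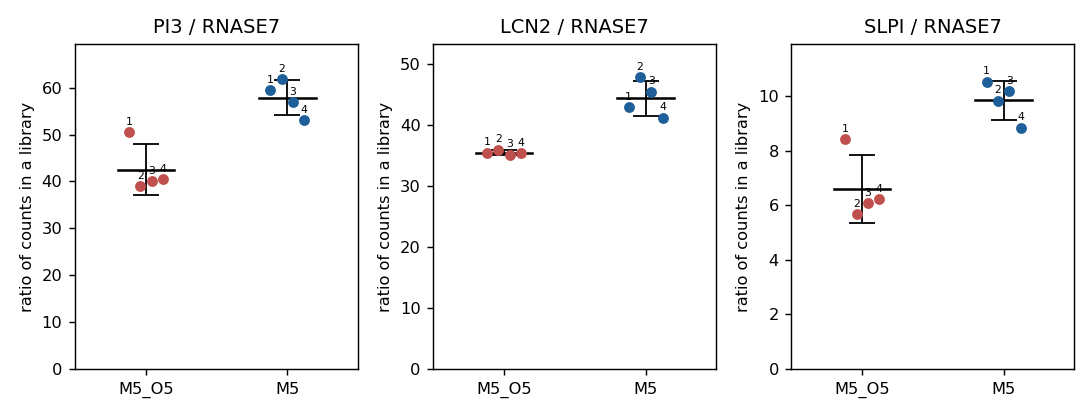
Ratio of the counts of PI3, LCN2 and SLPI to those of RNASE7 in each library, numbered by replicate, with the mean (bar) and SD (whiskers) of 4 libraries per group and axes that start at 0. Each ratio is lower in every M5_O5 library than in any M5 library, and that of LCN2 lies between 35.2 and 36 in M5_O5.

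Of the 10 genes, LCN2, RNASE7 and CAMP had an entry in the RefSeq promoter table of GRCh38.p14. The 250 bases before the start of LCN2 and RNASE7 are shown because the LCN2 to RNASE7 ratio did not overlap between the groups. That ratio did not pass after adjustment. Capitals mark matches on either strand to GGG, 5 bases of any kind and CC (an NF-κB motif), TTCNNNGAA (STAT), TTGCNNAA (C/EBP) or TGANTCA (AP-1). These letters occurred in 54.4%, 6.57%, 9.05% and 6.57% of all 35116 such windows. The LCN2 window is at chr9:128149203-128149452 and the RNASE7 window at chr14:21042112-21042361, both on the plus strand.

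LCN2: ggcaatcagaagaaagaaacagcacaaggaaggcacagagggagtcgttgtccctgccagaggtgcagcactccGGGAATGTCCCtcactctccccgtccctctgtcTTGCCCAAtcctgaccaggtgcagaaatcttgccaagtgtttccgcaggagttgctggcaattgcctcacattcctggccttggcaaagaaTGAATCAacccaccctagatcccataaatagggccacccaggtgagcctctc

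RNASE7: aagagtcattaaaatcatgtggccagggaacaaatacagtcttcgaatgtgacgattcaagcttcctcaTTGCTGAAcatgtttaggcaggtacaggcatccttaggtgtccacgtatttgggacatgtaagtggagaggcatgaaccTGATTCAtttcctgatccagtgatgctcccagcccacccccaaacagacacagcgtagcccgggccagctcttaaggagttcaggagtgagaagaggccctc

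The LCN2 window held 2 overlapping NF-κB matches that begin 176 and 175 bases before the start, a C/EBP match at 143 and an AP-1 match at 52. The RNASE7 window held a C/EBP match at 181 and an AP-1 match at 102 bases before the start, and no match to the NF-κB or STAT letters. In the CAMP window none of the 4 motifs was found. A match gives the letters only, and binding was not measured in these libraries.

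Genes around this group were taken from lists written with general knowledge and with earlier results of these data known. Values in parentheses are log2 fold changes of M5_O5 over M5. For the counts of each list, 17.6% of all genes tested were called lower and 19.5% higher by the same rule. Among genes that averaged 100 CPM or more, 42% were called lower and 8.42% higher. Among 28 other antimicrobial genes of skin, 12 were tested, of which 6 were lower and 2 higher in M5_O5, with a median log2 fold change of -0.19. The calcium-binding proteins S100A7 (-0.58, adjusted p = 0.00391), S100A12 (-0.40, adjusted p = 0.000807) and S100A8 (-0.39, adjusted p = 0.00122) were lower (all edgeR). The peptide precursor ADM was higher (0.46, adjusted p = 2.37e-05, edgeR). With the trend on expression level removed, S100A8 no longer passed (edgeR, adjusted p = 0.0707). In the same WAP family as PI3 and SLPI, 5 of 13 genes were tested. WFDC2 (-0.52, adjusted p = 0.00019) and WFDC5 (-0.43, adjusted p = 0.00363) were lower, 0 were higher, and the other 3 did not pass (edgeR).

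Other epidermal protease inhibitors changed in both directions. Of 24 genes, 20 were tested, of which 9 were lower and 2 higher in M5_O5, with a median of -0.18. SERPINB2, an inhibitor of urokinase, was higher (1.11, adjusted p = 6.77e-08, edgeR). SERPINE2 (-0.53, adjusted p = 7.4e-05) and the cysteine protease inhibitor CSTA (-0.47, adjusted p = 0.000149) were lower (edgeR). With the trend removed, 5 genes were lower and 3 higher.

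Among 22 proteases, receptors and processing enzymes that act on or with these proteins, 12 were tested and 3 passed in each direction. MMP9, the partner of LCN2, was far lower (-1.98, edgeR adjusted p = 7.79e-08), as was the transglutaminase TGM2 (-0.96, adjusted p = 1.44e-05). KLK5, a kallikrein that processes cathelicidin, was higher (0.92, adjusted p = 2.93e-06, edgeR). The growth factor receptor EGFR was lower (-0.27, adjusted p = 0.00149, edgeR), a call that was lost with the trend removed (adjusted p = 0.249). The elastase-like target PRTN3 and the receptors LRP2 and FPR2 had no reads in any library.

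Of 18 regulators of antimicrobial genes, 17 were tested, and 7 were lower and 1 higher, with a median of -0.17. The NF-κB subunit RELA (-0.43, adjusted p = 0.000656), the epithelial transcription factor ELF3 (-0.32, adjusted p = 0.00209), the keratinocyte regulator TP63 (-0.29, adjusted p = 0.000834) and CYP27B1 (-0.27, adjusted p = 0.00274), which activates vitamin D, were lower (edgeR). With the trend removed 3 were lower, among them RELA and ELF3, while TP63 (adjusted p = 0.0615) and CYP27B1 (adjusted p = 0.0729) did not pass. NFKBIZ, which encodes the IκBζ cofactor of DEFB4A and LCN2 induction, differed by -0.01 (edgeR, adjusted p = 0.856).

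**Figure D5:**
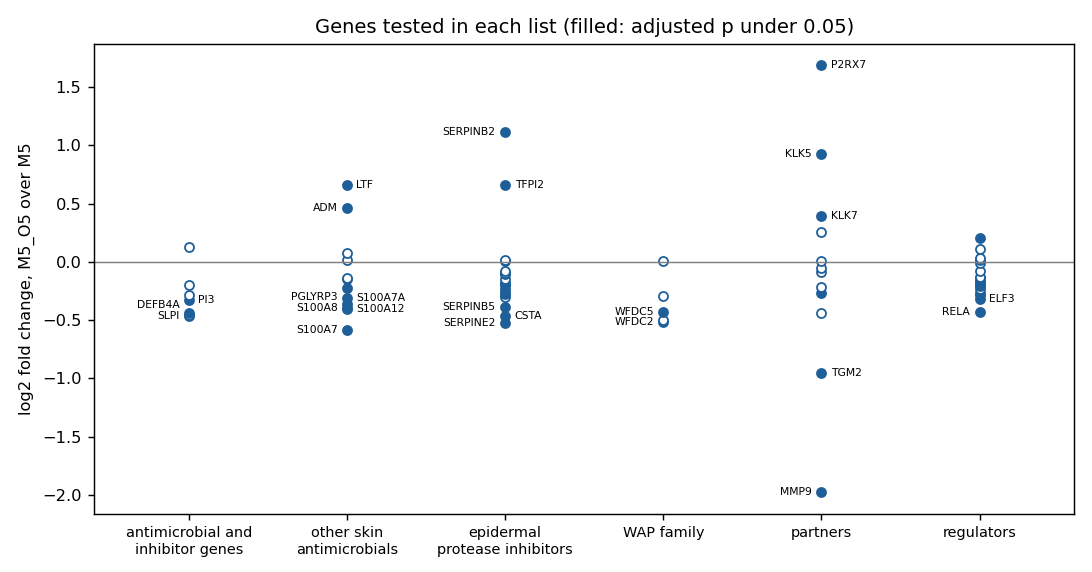
Log2 fold change of M5_O5 over M5 for the tested genes of the group described here and of 5 related lists, with 1 inhibitor left out, filled where the adjusted p-value (edgeR) was under 0.05 and named where it was also beyond 0.3 in size. The 3 called genes of the group lie between -0.46 and -0.33, and the related lists reach from -1.98 for MMP9 to 1.69 for P2RX7, which had 4 to 25 reads per library.

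Neutrophils, another source of LCN2, SLPI and CAMP, were at or near 0 by their markers. Of 10 neutrophil markers, 5 were in the table, and AZU1, PRTN3 and CSF3R had no reads. The summed level of the 5 was 0.05 to 0.15 TPM in M5_O5 and 0 to 0.14 TPM in M5. Among 6 markers of other leukocytes, PTPRC was at 0 and CD14 and CD68 were tested, of which CD68 was lower in M5_O5, and the summed level was 108.5 to 124.6 TPM in M5_O5 and 122.8 to 139.3 TPM in M5. The 5 fibroblast markers summed to 10.3 to 10.8 TPM in M5_O5 and 13.0 to 15.3 TPM in M5, nearly all of it COL1A1, which was lower in M5_O5. The 4 melanocyte markers summed to 0.64 to 0.95 TPM in M5_O5 and 0.65 to 0.71 TPM in M5. The part of these markers in the values above was not tested.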

How the data were processed

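RNA of HaCaT cells was sequenced in 8 libraries, 4 titled M5_O5 and 4 titled M5. Filtered reads were mapped by the authors with HISAT2 2.1.0 and counted with StringTie. The submitters' processing notes also name Bowtie2 2.2.5, RSEM 1.2.8 and the mouse build mm10, although the identifiers are human, so the build of the table is taken as not known and no gene positions of it are given. The authors deposited an estimated count per transcript, not normalized. They also deposited TPM, on 1 total for all libraries, and FPKM, which was not used here.

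Counts of 86639 transcripts were summed to 17131 genes over all placements and rounded. Symbols came from RefSeq (17072 matched). The 12434 genes kept by filterByExpr were scaled by TMM and tested with edgeR 4.0.16 (R 4.3.3, quasi-likelihood, Benjamini-Hochberg), in place of the DESeq2 of the study. Single values were tested with exact permutation tests. The edgeR, DESeq2 and limma fits were first run on simulated counts. These had the same dispersion for every gene, no trend on expression level and no deviating replicate, so the simulation did not cover those features. Alternatives were DESeq2 1.42.0, limma 3.58.1 on log2(TPM + 1) and log2(TPM + 0.1), other scalings and filters, removal of the trend on expression level (loess per library, span 0.3), a replicate block, 1 placement per transcript, each library left out and, added later, replicate 1 of both groups left out. Intervals and detection limits cover counting and replicate error only.

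All 10 genes were described whether they passed or not. From each related list, the called genes with at least 10 CPM and the 4 largest changes were named, except 1 inhibitor that is counted but not reported here, and NFKBIZ, P2RX7, PRTN3, LRP2 and FPR2 were added after their values were seen. The members and lists were chosen with earlier results of these data known. All replicate pairs differed by more than counting noise (chi-square per gene of 2.02 to 16.5, the largest with replicate 1), so all 8 libraries were used.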

Additional observations from a re-analysis of the deposited data

Results flagged for a closer look

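Single libraries were set against the rest of their group in 43 sets of CPM values and count ratios, where chance alone gives about 2.15 that stand apart. The gap to the next library exceeded the critical share of the group's range (Dixon's 95% value for 4 libraries) in 2 sets. DEFB103B in M5 had a share of 1, which stands for its single read in M5 replicate 2. The share was 0.861 for the ratio of PI3 to RNASE7 in M5_O5 replicate 1, which was 50.5 against 39 to 40.5 in the other M5_O5 libraries. It lay toward the M5 libraries, which had 53.1 to 61.8. The library had the lowest LCN2 and RNASE7 levels and the highest SLPI level of its group. No explanation was tested.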

How the results depend on the processing

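The calls of SLPI, DEFB4A and the DEFB4A and DEFB4B sum held in all 19 alternatives each. Removal of the trend on expression level turned LCN2 from -0.19 to 0.00713 on the log2 scale, PI3 no longer passed (-0.12, adjusted p = 0.108, edgeR), and DEFB4B passed (-0.43, adjusted p = 0.0412, edgeR). One gene, RNASE7, counted as higher in M5_O5 with library size as the only scaling, with limma on log2(TPM + 1) and with limma on log2(TPM + 0.1). Over all genes, 398 were called at a fold change of at least 2, 152 with limma on log2(TPM + 1), and 4612 without a fold change threshold. The share of called genes that were higher was 89.7%, and 73.3% with the trend removed.

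Without replicate 1 of both groups, 5 of the 10 genes passed by the adjusted p-value alone, all lower, where this fit called 21.6% of all genes tested lower. The deviations of same-numbered libraries from their group means had correlations of 0.209, 0.0986, -0.00358 and 0.013 for replicates 1 to 4. Only that of replicate 1 was over 0.1, and M5_O5 replicates 3 and 4 correlated better with another number, so the numbers were not taken to pair the samples. With the replicate number as a block, 400 genes were called at a fold change of at least 2, none of them a member. By the adjusted p-value alone, whatever the fold, 4 of the 10 genes passed. The added call was LCN2 (-0.19, adjusted p = 0.00511, edgeR), with no other call of a member changed. The share of all genes passing by the adjusted p-value alone was not computed for this fit, and was 37.1% without the block. Leaving out libraries in turn called 380 to 511 genes at a fold change of at least 2. It kept the log2 fold change of SLPI between -0.51 and -0.43, of PI3 between -0.39 and -0.26 and of the DEFB4A and DEFB4B sum between -0.45 and -0.32. DEFB103A could not be fitted with 10 counts required in every library. Depth limits CAMP, DEFB1 and DEFB103B, which had too few reads for a test.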

Other observations

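Among genes that averaged 10 CPM or more, those whose log2(CPM + 1) ran most nearly parallel to PI3 over the 8 libraries were GNAI2, MANBAL and TICAM1 (Pearson's r of 0.99, 0.989 and 0.989). For SLPI they were ZBED1, ARF1 and PHRF1 (r of 0.991, 0.989 and 0.987). All 6 were lower in M5_O5, with log2 fold changes from -0.45 for TICAM1 to -0.23 for MANBAL, so the shared difference between the groups is part of each r, as is the common scaling of each library.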
